A study of Canis lupus familiaris with 23 samples.

Results

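Later passages of dog hair follicle organoids were compared with early passages of the same kind of culture. The 9 libraries are those of follicle-derived organoids kept in expansion culture, taken on day 7, out of 23 libraries in the series. The 4 later libraries come from passages 3 to 6, which the labels call mid-term, and the 5 early libraries from passages 0 to 1. Of the later libraries, 2 came from cultures with a Tgf-beta inhibitor and 2 from cultures without it. Of the early libraries, 3 had the inhibitor and 2 did not. Libraries were assigned by these labels and not by any measured value. The passage of a library within its range, the dog it came from, the identity of the inhibitor and the gate by which cells were sorted are not stated. Titles of the cultures with the inhibitor carry the code EFA83, which the labels do not explain. The labels do not say whether replicates are separate dogs or cultures. The p-values therefore set a difference against the spread between libraries of a group, which may be technical. That spread was estimated over all 23 libraries of the series in their 12 groups, not over the 9 alone.

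Hair follicle organoids are balls of keratinocytes that grow in a gel from stem and progenitor cells of the follicle's outer root sheath. At passage they are broken up and replated, so cells that divide well in the medium make up more of the culture, and other cells taken along from the skin, such as fibroblasts and melanocytes, are usually diluted. Keratinocyte culture is known for the rise of the cell cycle inhibitor CDKN2A with passage, while Tgf-beta restrains keratinocyte growth and raises matrix genes in fibroblasts.

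RNA was counted from transcript 3′ ends by CEL-seq2, which makes a bulk library of each culture. Total counts were 1095813 to 1500100 in later cultures with the inhibitor and 2546895 to 3563373 in later cultures without it, against 1790293 to 4822410 in early cultures with it and 734647 to 2340121 in early cultures without it. Levels are given as CPM, counts scaled to a common library total after adjusting each total by edgeR's TMM factor. On that scale a count of 0 allows a level of up to 0.691 CPM in the deepest of the 9 libraries and 4.04 CPM in the shallowest, for counting error only. Replicate 1 of early cultures with the inhibitor stood apart: mitochondrially encoded genes held 5.35% of its counts, against 15.53 to 26.85% in the other 8. The first principal component over 4780 genes, with 47.2% of the variance, put it at one end. On the second, with 15.5%, the 4 later libraries lay between -20.49 and -4.74 and the 5 early ones between 6.58 and 19.34.

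Both classes were keratinocytes by their defining keratins. KRT5, the basal epidermal keratin, stood between 33207 and 40769.9 CPM in later libraries and between 18818 and 37285 CPM in early ones. Its partner KRT14 stood between 22467 and 38099.5 CPM in later and between 17329.7 and 34548 CPM in early libraries. The fibroblast markers PDGFRA and LUM held at most 3 and 5 counts in any of the 9 libraries, and the leukocyte marker PTPRC and the muscle marker DES held 0 in each. Other genes of fibroblasts and muscle were detected in each library. DCN held 13 to 264 counts, and TAGLN, a protein of smooth muscle and contractile fibroblasts, held 29 to 218. Of other immune cell genes, CD74 was also detected in each library, with 2 to 19 counts, while TYROBP held at most 1 count.

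Averaged over cultures with and without the inhibitor, later organoids held less RNA of several transcription factors, matrix genes and the chemokine CXCL14. They held more of the D-type cyclin CCND2, the cell cycle inhibitor CDKN2A, the growth factor NRG1, the keratin KRT4, the tetraspanin UPK1B and the urea transporter SLC14A1. Not all of these changes were seen in both media. CXCL14 and the matrix gene DCN had log2 changes of -5.35 and -3.04 without the inhibitor. In cultures with it the changes were -0.68 and -0.54 and did not pass the test. The difference between media was not called for either gene. With the inhibitor kept as a factor, 35 of 9893 tested genes passed an adjusted p of 0.05 (0.354%). Of these, 17 were higher (0.172%) and 18 lower (0.182%) in later organoids. The median log2 change over all genes was -0.03. The values of the 4 later and 5 early libraries did not overlap for 335 genes (3.39%), of which 163 were higher (1.65%) and 172 lower (1.74%) in the later ones, nor for 22 of the 35 called genes. The number called rests on single libraries: it was 9 without either later replicate with the inhibitor, 11 without later replicate 2 and 23 without later replicate 1 of the cultures lacking it. It was 53 without early replicate 1 and 16 without early replicate 3 with the inhibitor, and 20 and 18 without early replicate 1 and 2 lacking it. A left-out library can leave a group with 1 sample, which is then assumed to vary like the other groups.

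**Figure D1:**
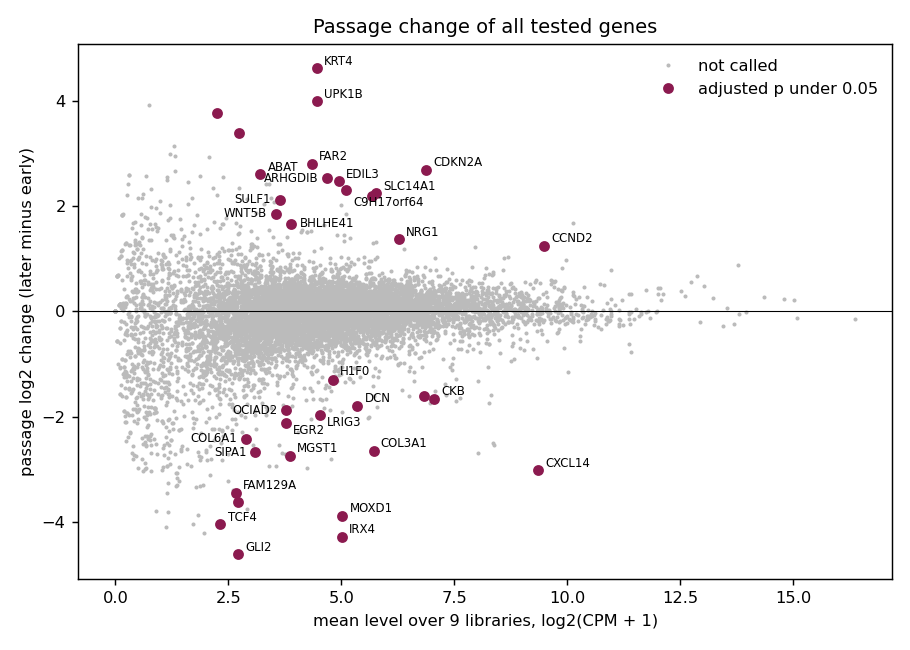
Passage change of all 9893 tested genes. Each point is a gene, by its mean level over the 9 libraries as log2(CPM + 1) and its log2 change in later minus early organoids, and the 35 called genes are large points, named where they have a gene symbol. CCND2 and CXCL14 are the called genes at the right, with changes of 1.25 and -3.02, while GLI2 and TCF4 lie at low levels.

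IRX4, an Iroquois-family homeobox transcription factor, was lower in each later library than in any early one. It stood at 1.49 and 0 CPM in later cultures with the inhibitor and at 4.84 and 7.16 CPM in later cultures without it. In early cultures it stood at 9.48, 21.5 and 31.1 CPM with the inhibitor and at 117 and 87.6 CPM without it. Early cultures without the inhibitor held the most, later cultures with it the least. The mean was 3.37 CPM in later and 61.5 CPM in early organoids, a log2 change of -4.29 ± 0.53 (SE; adjusted p = 0.000622). The call held when any of the 9 libraries was left out, with -5.86 without later replicate 1 with the inhibitor and -4.45 to -3.92 in the other 8 fits. IRX4 had a fractional count in 1 of the 9 libraries. Follicle tissue, from which the cultures were started, held 35.7 and 46.2 CPM, between later and early organoids without the inhibitor.

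Other developmental regulators were lower too. GLI2, a transcription factor of the Hedgehog pathway, had 0 counts in both later libraries with the inhibitor and stood at 1.14 and 0.843 CPM in later libraries without it. Early libraries held 4.07, 3.49 and 4.38 CPM with the inhibitor and 21.5 and 14.5 CPM without it, so that the classes did not overlap (adjusted p = 0.00714). Follicle tissue, at 15.9 and 14.6 CPM, was near the early cultures without the inhibitor. GLI2 was not called without later replicate 1 or 2 with the inhibitor (adjusted p = 0.0623 and 0.0506).

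TCF4, a helix-loop-helix factor common in mesenchymal cells, averaged 0.53 CPM in later and 7.95 CPM in early organoids, again with 0 counts in both later libraries with the inhibitor (adjusted p = 0.0402). Early cultures held 1.355, 1.745 and 3.22 CPM with the inhibitor and 16.1 and 11.5 CPM without it. A count of 0 in those later libraries allows up to 2.23 and 3.03 CPM, so the zeros alone do not show a fall with the inhibitor. TCF4 kept its call in 1 of the 9 fits that left out a library, the one without early replicate 1 with the inhibitor, and its adjusted p reached 0.249. The zinc finger factor EGR2, induced soon after growth factor stimulation, stood at 2.53 to 7.97 CPM in later and 12.8 to 35 CPM in early libraries. Its log2 change was -2.12 ± 0.39 (adjusted p = 0.0141). The fit that left out early replicate 1 without the inhibitor gave -1.73 (adjusted p = 0.1), and 4 others also lost the call. LHX2, a homeobox factor of follicle stem cells, stood at 0.421 to 2.97 CPM in later, 4.65 to 12.1 CPM in early and 142 to 229.9 CPM in tissue libraries. LHX2 did not pass the test between passages (log2 -2.05, adjusted p = 0.122), nor did HOXC13, a regulator of hair keratins (-1.31, adjusted p = 0.204).

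In the list of homeobox and positional genes, IRX4 was the one called member of 21 tested, and 14 of them had a change below zero, with a median of -0.32. Of 26 tested immediate early and heat shock genes EGR2 alone was called, 20 were below zero and the median was -0.62. Over all genes, the background for this and each list below, 53.1% were below zero and 0.354% were called. One called gene ran the other way among regulators: BHLHE41, a repressor of the circadian clock, stood at 13.5 to 25.2 CPM in later and 2.20 to 13.5 CPM in early libraries. It was higher by 1.66 ± 0.35 on the log2 scale (adjusted p = 0.0392), and 1.22 without early replicate 2 lacking the inhibitor (adjusted p = 0.341). It kept its call in 2 of the 9 such fits.

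**Figure D2:**
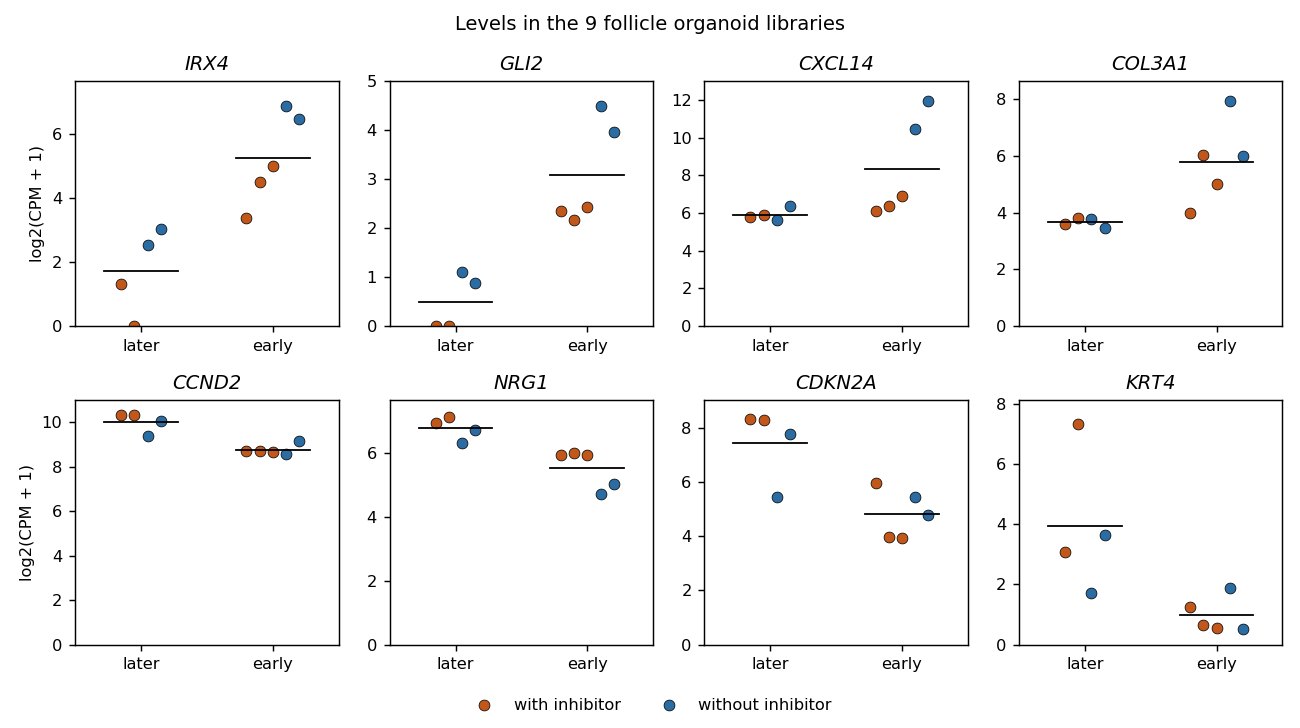
Levels of 8 called genes in each of the 9 libraries, as log2(CPM + 1), with later libraries left of early ones, the inhibitor shown by colour and a line at the mean of each class. IRX4, GLI2 and COL3A1 are lower, and CCND2 and NRG1 higher, in each of the 4 later libraries than in any of the 5 early ones, whereas CXCL14, CDKN2A and KRT4 overlap.

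COL3A1, the chain of type III collagen, was nearly level across later cultures and varied among early ones. Later libraries held 11.1 and 13.1 CPM with the inhibitor and 12.8 and 10.1 CPM without it. Early libraries held 14.9, 64 and 31.1 CPM with the inhibitor and 243 and 63.0 CPM without it. The classes did not overlap, although the lowest early library, the replicate that stood apart, was close to the highest later one. COL3A1 fell by 2.65 on the log2 scale (SE 0.49, adjusted p = 0.0159). In follicle tissue it stood at 2352 and 1168 CPM. The fold without early replicate 1 lacking the inhibitor was -2.01 (adjusted p = 0.13). The call was also lost without later replicate 1 or 2 with the inhibitor (-2.58 and -2.71) and without later replicate 1 or 2 lacking it (-2.74 and -2.56). A fit to the 9 libraries alone did not call COL3A1 (-2.65, adjusted p = 0.0665), nor did one with additive terms for passage and inhibitor (-2.73, adjusted p = 0.0933).

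DCN, decorin, a collagen-binding proteoglycan, stood at 15.6 and 13.1 CPM in later cultures with the inhibitor and 13.4 and 15.6 CPM without it. Early cultures with the inhibitor held 19.6, 16.9 and 25.8 CPM and those without it 124 and 116 CPM. The early cultures without the inhibitor thus lay far above the other 7 libraries. DCN fell by 1.79 on the log2 scale (SE 0.32, adjusted p = 0.0141), and 5 of the 9 fits that left out a library lost the call, with changes of -1.85 to -1.69 over all 9.

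COL6A1, a chain of type VI collagen, was the third called matrix gene, with a mean of 1.93 CPM in later and 11 CPM in early organoids (-2.42 ± 0.50, adjusted p = 0.0355). It was called in 2 of the 9 fits without a library. COL1A1, a chain of type I collagen, stood at 8.17 to 13.4 CPM in later and 21.2 to 63.2 CPM in early libraries without passing the test (-1.68, adjusted p = 0.204). VIM, the mesenchymal filament vimentin, did not pass it either (-1.05, adjusted p = 0.416) and stood at 135 CPM in early replicate 1 without the inhibitor and 8.13 to 28.6 CPM in the other 8 libraries.

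Of 32 tested members of the fibroblast and interstitial matrix list, 0 were called higher and 3 lower. Over all tested genes these shares were 0.172% and 0.182%. In the list 25 were below zero, with a median of -1.25, against 53.1% and -0.03 over all genes. The summed level of this list was 568.0 and 690.3 CPM in later and 390.3 to 458.0 CPM in early cultures with the inhibitor. Without it the sum was 866.3 and 895.5 CPM in later and 1362.8 and 1160.5 CPM in early cultures. In cultures with the inhibitor the 3 called genes thus stood lower, and the sum of the list higher, in each later library. For COL6A1 this rests on 1 and 2 counts in later and 3, 15 and 37 counts in early cultures with the inhibitor. Its highest later and lowest early level there, 2.02 and 2.03 CPM, were alike within counting error. SPARC, a secreted matrix glycoprotein of the list looked up after its values were seen, stood at 316 and 429 CPM in later and 154, 103 and 141 CPM in early cultures with the inhibitor (log2 1.49, adjusted p = 0.267). The list of melanocyte and Schwann cell genes summed to 14.8 to 26.2 CPM in later and 22.1 to 30.5 CPM in early libraries, except for 296.0 CPM in early replicate 1 without the inhibitor, and none of its 10 tested members was called. In a bulk library fewer cells of a type and less RNA per cell cannot be told apart, and the part of other cell types in these differences was not tested.

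Of 38 tested genes of the Tgf-beta response list COL3A1 was the one called, where 0.354% of all tested genes were called. In the list 29 were below zero, with a median of -0.27, against 53.1% and -0.03 over all genes. Of 16 genes of epithelial to mesenchymal transition TCF4 was called, with a median of -0.39.

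CXCL14, a chemokine made by resting skin epithelium, was high in early cultures without the inhibitor. It stood at 53.5 and 57.5 CPM in later cultures with the inhibitor and 49.2 and 81.8 CPM without it. Early cultures with the inhibitor, at 67.1, 82.0 and 117 CPM, reached down among the later values. Early cultures without it held 1394 and 3957 CPM and follicle tissue 2319 and 1439 CPM. The log2 change over both media was -3.02 ± 0.50 (adjusted p = 0.0068). It was not called without later replicate 1 or 2 with the inhibitor (-2.98 and -3.05) or later replicate 1 lacking it (-2.86), nor in the additive fit to the 9 libraries (-2.67, adjusted p = 0.295). Of 14 tested cytokines and chemokines CXCL14 was the one called, and the median of the list, 0.31, had the opposite sign.

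A pair of cell cycle genes with opposed roles were both higher in later organoids. CCND2, cyclin D2, which activates the kinases that start the cell cycle, stood at 1275 CPM in each later library with the inhibitor and at 677 and 1064 CPM in those without it. Early libraries held 412, 412 and 403 CPM with the inhibitor and 383 and 578 CPM without it. The later values all lay above the early ones, of which replicate 2 without the inhibitor was the highest. Counts of CCND2 held fractions in 3 of the 9 libraries. CCND2 was higher by 1.25 ± 0.27 on the log2 scale (adjusted p = 0.0448). Of the 4 genes named for the passage classes it had the highest adjusted p, and its call was lost when any of the 9 libraries was left out, with changes of 1.08 to 1.41 and adjusted p between 0.0526 and 0.325. Follicle tissue held 472 and 291 CPM.

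CDKN2A, which encodes an inhibitor of the cyclin D kinases and the p53 activator ARF, stood at 320.0 and 312 CPM in later cultures with the inhibitor and 42.4 and 221 CPM in later cultures without it. Early cultures held 61.6, 14.5 and 14.3 CPM with the inhibitor and 43.0 and 26.4 CPM without it. Of the later libraries, replicate 1 without the inhibitor fell among the early values. CDKN2A was higher by 2.69 ± 0.51 on the log2 scale (adjusted p = 0.0159), and follicle tissue held 6.61 and 8.87 CPM. Without later replicate 2 lacking the inhibitor the change was 1.89 (adjusted p = 0.172). The call was also lost without later replicate 1 or 2 or early replicate 3 with the inhibitor (2.68, 2.69 and 2.50), and without early replicate 1 or 2 lacking it (2.87 and 2.51). Neither fit to the 9 libraries alone called CDKN2A (adjusted p = 0.08, and 0.0695 in the additive one). The counts do not separate the transcripts of the locus.

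CDKN1A, the p53-induced cell cycle inhibitor, did not pass the test (449 CPM in later and 372 CPM in early organoids, log2 0.29, adjusted p = 0.952). Of the 21 tested cyclins, CDK inhibitors and p53 targets, 2 were called higher and 0 lower, with a median of 0.09. Over all tested genes these shares were 0.172% and 0.182%, and 53.1% were below zero. None of 29 S phase genes (median -0.10) or 33 genes of G2 and mitosis (median -0.34, 29 below zero) was called. MKI67, the usual marker of dividing cells, held 1 to 12 counts in later and 3 to 25 in early libraries, too few to be tested.

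NRG1, neuregulin 1, a ligand of the ERBB receptors, stood at 123 and 139 CPM in later cultures with the inhibitor and 79.4 and 105 CPM without it. Early cultures held 61, 64 and 60.1 CPM with the inhibitor and 25.6 and 32.1 CPM without it. In both media each later library lay above each early one, and at either passage the cultures with the inhibitor lay above those without. NRG1 was higher by 1.37 ± 0.26 on the log2 scale (adjusted p = 0.0173), and follicle tissue held 2.64 and 6.33 CPM. The call was lost without later replicate 1 or 2 or early replicate 3 with the inhibitor (1.42, 1.32 and 1.36) and without early replicate 1 or 2 or later replicate 2 lacking it (1.31, 1.46 and 1.28).

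NRG1 was the one called gene of 17 tested EGF family ligands, neuregulins and receptors, of which 11 were below zero (median -0.32). Another ligand, AREG, amphiregulin, averaged 44.9 CPM in later and 17.2 CPM in early organoids without passing the test (2.02 ± 0.45, adjusted p = 0.0585). Outside that list LRIG3, of a family of membrane proteins whose member LRIG1 restrains ERBB receptors, was lower at 4.04 to 12.6 CPM in later and 13.5 to 55.1 CPM in early libraries (-1.97 ± 0.42, adjusted p = 0.0416). Of the 9 fits without a library it kept its call in 1.

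WNT5B, a Wnt ligand, averaged 19.0 CPM in later and 4.22 CPM in early organoids (1.85 ± 0.39, adjusted p = 0.0392), and 1.32 without later replicate 1 with the inhibitor (adjusted p = 0.639). SULF1, an extracellular enzyme that trims sulfate from heparan sulfate and so alters growth factor binding, averaged 18.3 CPM in later and 5.32 CPM in early organoids (2.12 ± 0.45, adjusted p = 0.0416). Each kept its call in 2 of the 9 fits without a library. WNT5B is not on the Wnt and R-spondin list, of which none of the 23 tested genes was called (median -0.32). APCDD1, a membrane-bound Wnt inhibitor, had the smallest p among them, with 3.61 CPM in later and 13.2 CPM in early organoids (-1.64, adjusted p = 0.072).

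KRT4, UPK1B and SLC14A1 were higher in later organoids. KRT4, a keratin of the mouth and oesophagus, stood at 7.42 and 162 CPM in later cultures with the inhibitor and 2.28 and 11.4 CPM without it. Early cultures held 1.35, 0.582 and 0.461 CPM with the inhibitor and 2.69 and 0.44 CPM without it, so that the classes overlapped at a single early library. KRT4 had the largest log2 rise of the called genes, 4.62 ± 0.84 (adjusted p = 0.0152), but it rests on 161 counts in later replicate 2 with the inhibitor. Without that library the change was 2.85 (adjusted p = 0.231). It was also lost without early replicate 3 with the inhibitor (4.40), early replicate 2 lacking it (3.98) and later replicate 2 lacking it (3.89). KRT13, the partner of KRT4 in mucosa, looked up after the values were seen, averaged 8.47 CPM in later and 3.60 CPM in early organoids and was not called (1.10, adjusted p = 0.606). Of 11 mucosal and simple epithelial keratins KRT4 was the one called, with a median of -0.07.

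UPK1B, a tetraspanin of the bladder lining, stood at 59.4 and 91.8 CPM in later cultures with the inhibitor and 4.27 and 19.0 CPM without it. Early cultures held 10.2, 0.582 and 3.45 CPM with the inhibitor and 0 and 0.881 CPM without it (3.99 ± 0.64, adjusted p = 0.00689). Leaving out early replicate 2 or later replicate 2 lacking the inhibitor ended the call (5.37 and 3.31). SLC14A1, a urea transporter, stood at 117 and 244 CPM in later cultures with the inhibitor and 13.9 and 18.5 CPM without it. Early cultures held 39.3, 14.5 and 21.0 CPM with the inhibitor and 6.73 and 4.40 CPM without it. It was higher by 2.25 ± 0.33 on the log2 scale (adjusted p = 0.00572), although later cultures without the inhibitor overlapped early ones with it. Without early replicate 2 lacking the inhibitor its adjusted p was 0.0542. In follicle tissue KRT4 had 0 counts, UPK1B stood at no more than 1.32 CPM and SLC14A1 at no more than 6.97 CPM.

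**Figure D3:**
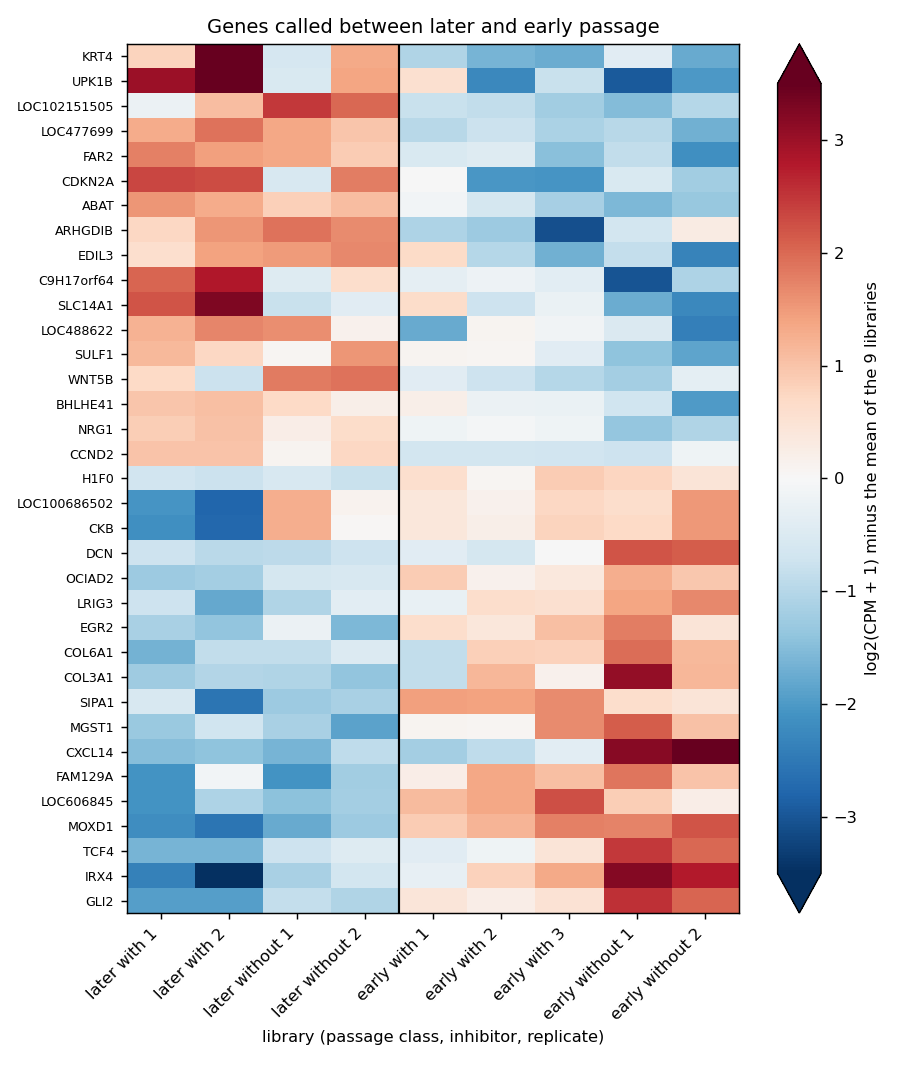
The 35 called genes in each of the 9 libraries, with the 4 later libraries left of the line and the 5 early ones right of it. Colour gives log2(CPM + 1) minus the gene's mean over the 9 libraries, with values beyond 3.5 shown at the end of the scale. IRX4, GLI2, TCF4, CXCL14 and DCN are highest in the 2 early cultures without the inhibitor, and UPK1B, SLC14A1 and C9H17orf64 in the 2 later cultures with it.

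The remaining called genes are named because each call is accounted for. MOXD1, a membrane protein of the copper-dependent monooxygenase family, had the smallest p among the falls after IRX4. It stood at 2.97 and 2.02 CPM in later cultures with the inhibitor and 4.27 and 6.32 CPM without it, against 31.8, 39.6 and 59.6 CPM in early cultures with it and 57.8 and 80.2 CPM without it. The highest later library was thus well below the lowest early one (-3.89 ± 0.61, adjusted p = 0.00572), and the call was lost without either later replicate with the inhibitor (adjusted p = 0.0623 and 0.0716). C9H17orf64, an open reading frame without an assigned role here, averaged 62.3 CPM in later and 9.57 CPM in early organoids (2.31 ± 0.35, adjusted p = 0.00572). Its change was 3.31 without early replicate 2 lacking the inhibitor and 2.01 to 2.55 in the other 8 such fits. IRX4 and C9H17orf64 were the 2 of 35 called genes that kept their call in every alternative run.

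Enzymes moved both ways. FAR2, a fatty acyl-CoA reductase that makes the alcohols of wax esters, stood at 24.9 to 46.8 CPM in later and 2.20 to 9.31 CPM in early libraries (2.80 ± 0.48, adjusted p = 0.00832). ABAT, which breaks down the transmitter GABA, stood at 11.4 to 19.3 CPM in later and 1.34 to 5.42 CPM in early libraries (2.60 ± 0.42, adjusted p = 0.00669). MGST1, a membrane-bound glutathione transferase that detoxifies lipid peroxides, stood at 1.69 to 5.05 CPM in later and 9.31 to 41.7 CPM in early libraries (-2.75 ± 0.56, adjusted p = 0.0376). ABAT lost its call without early replicate 2 lacking the inhibitor (2.73) and FAR2 without that library or later replicate 1 with it (2.36 and 2.72), while MGST1 lost it in 6 of the 9 fits.

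CKB, the brain-type creatine kinase, stood at 20.8 and 13.1 CPM in later cultures with the inhibitor and 228 and 97.3 CPM without it. Early cultures held 125.3, 109 and 163 CPM with the inhibitor and 155 and 271 CPM without it. The later cultures with the inhibitor were the low ones. CKB fell by 1.67 on the log2 scale (SE 0.29, adjusted p = 0.00867), and 4 of the 9 fits without a library lost the call (-1.85 to -1.41). The provisional entry LOC100686502 followed it closely (-1.61, adjusted p = 0.0141). Counts of CKB held fractions in 8 and those of LOC100686502 in 7 of the 9 libraries. How these fractions arose was not tested, and whether the entries share reads is not known.

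Among genes of signalling and adhesion, ARHGDIB averaged 45.5 CPM in later and 9.34 CPM in early organoids (2.52 ± 0.55, adjusted p = 0.0435). EDIL3, a secreted integrin ligand, averaged 52.0 CPM in later and 11.2 CPM in early organoids (2.47 ± 0.46, adjusted p = 0.0141). SIPA1, which switches off the GTPase Rap, averaged 1.52 CPM in later and 11.6 CPM in early organoids (-2.68 ± 0.51, adjusted p = 0.0173). Of the fits without a library, ARHGDIB kept its call in 1 of 9, EDIL3 in 6 of 9 and SIPA1 in 3 of the 8 that could test it. The change of EDIL3 ranged over these fits from 2.01 to 3.00. That of SIPA1 was -4.69 without later replicate 1 with the inhibitor and -2.74 to -2.28 in the other 7.

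The linker histone H1F0, which accumulates in cells that stop dividing, stood at 13.9 to 16.2 CPM in later and 25.6 to 45.6 CPM in early libraries (-1.31 ± 0.28, adjusted p = 0.0398). OCIAD2 averaged 5.26 CPM in later and 19.6 CPM in early organoids (-1.87 ± 0.33, adjusted p = 0.00867), and FAM129A, a stress-induced protein, 0.97 CPM in later and 9.20 CPM in early organoids (-3.45 ± 0.72, adjusted p = 0.0448). Of the 9 fits without a library, H1F0 kept its call in 2, OCIAD2 in 6 and FAM129A in 1. The change of FAM129A was -5.32 without later replicate 2 with the inhibitor, -4.46 without later replicate 2 lacking it, and -2.87 and -2.91 without the other 2 later libraries. The other 4 called entries have provisional names. LOC477699 was higher in later organoids by 3.39 on the log2 scale (adjusted p = 0.00572) and kept its call in 8 of the 9 fits without a library. LOC488622 was higher by 2.20 (adjusted p = 0.03) and kept it in 4, with an adjusted p of up to 0.23. LOC606845 was lower, with a change of -3.63 (adjusted p = 0.00832). It kept its call in 8 of the fits and had a change of -4.79 without later replicate 2 with the inhibitor. LOC102151505 was higher by 3.76 (adjusted p = 0.0392) but kept its call in 1 of the 9 fits, with an adjusted p of up to 0.665 and changes of 3.26 to 4.74. Its counts held fractions in 7 of the 9 libraries.

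The basal and differentiation lists of keratinocyte genes held no called member, where 0.354% of all tested genes were called. Of 23 tested basal keratinocyte and hemidesmosome genes 0 were called and 19 were above zero (median 0.32). ITGA6, the hemidesmosome integrin, averaged 742 CPM in later and 508 CPM in early organoids (0.56, adjusted p = 0.666), and TP63, the master regulator of stratified epithelium, 74.9 CPM in later and 90.8 CPM in early organoids (-0.26, adjusted p = 0.937). KRT15, a keratin of follicle stem cells, ranged from 301 to 1540.1 CPM in later and from 180.3 to 2021 CPM in early libraries (-0.69, adjusted p = 0.904). KRT17, of the outer root sheath, averaged 1168 CPM in later and 715 CPM in early organoids (0.82, adjusted p = 0.709). A p that misses the threshold does not show that levels were equal.

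Of 40 tested genes of keratinocyte differentiation and the cornified envelope 0 were called, while 34 were below zero, with a median of -0.71. Over all genes 53.1% lay below zero. An unadjusted p under 0.05 was reached by 9 of the 40, all lower, where 4.68% of all tested genes were lower at that p. This list summed to 43931 CPM in early replicate 1 with the inhibitor and to between 6653.8 and 18527.0 CPM in the other 8 libraries, and without that replicate the median was -0.37. The count of 0 depends on the fit: 10 of 44 members were called lower without the count filter, 2 of 41 with the 17 tissue and expansion libraries and 1 of 40 with DESeq2. KRT10, the first keratin of differentiating cells, averaged 1672 CPM in later and 4279 CPM in early organoids, with 13088 CPM in early replicate 1 without the inhibitor (-0.78, adjusted p = 0.771). IVL, involucrin, a precursor of the cornified envelope, stood at 24306 CPM in early replicate 1 with the inhibitor, against 368 to 4319 CPM in later and 245 to 2963 CPM in the other early libraries (0.21, adjusted p = 1). FLG, filaggrin, averaged 60.5 CPM in later and 109.8 CPM in early organoids (-1.61, adjusted p = 0.675). DSC1 had the smallest p of the list, with 2.68 CPM in later and 23.1 CPM in early organoids (-2.71, adjusted p = 0.067). Its level was 57.8 CPM in early replicate 1 without the inhibitor and 2.30 to 17.2 CPM in the other early libraries.

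Other programmes also had 0 called genes. These were, among the larger lists, 64 nuclear-encoded genes of oxidative phosphorylation (median 0.13, 54 above zero), 76 ribosomal proteins (-0.12), 36 genes of glycolysis and hypoxia (-0.34, 30 below zero) and 32 genes of the hair shaft and inner root sheath (-0.15). The tested members of the Notch and BMP lists had medians of -0.19 and -0.34. Among all tested genes 0.354% were called, so 0 calls in a list of this size is near that share.

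**Figure D4:**
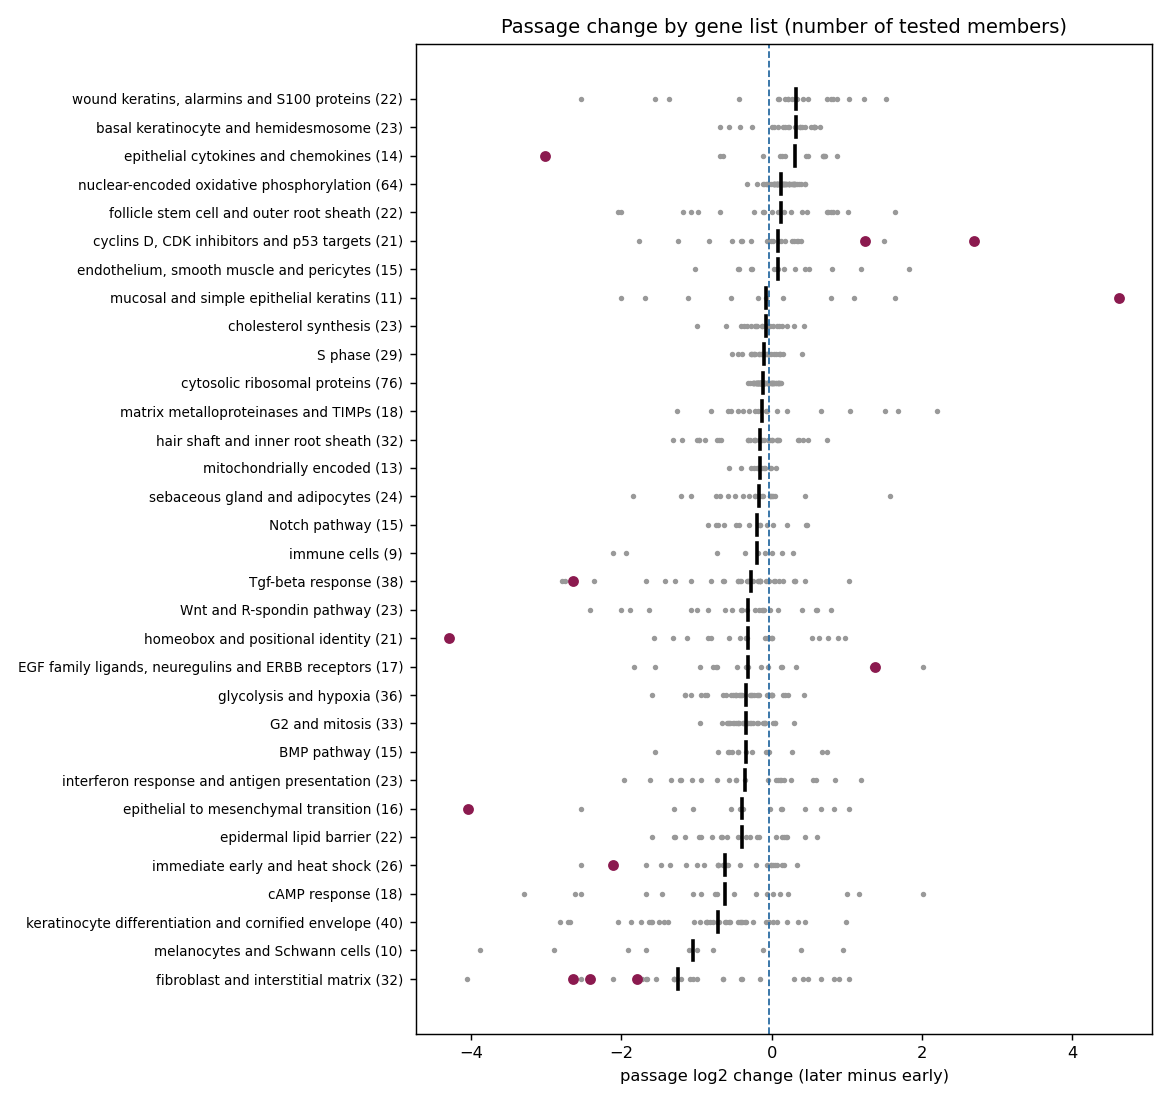
Passage log2 change (later minus early) of the tested members of each of 32 gene lists, with called members as large points, the list's median as a bar and the median of all 9893 genes, -0.03, as a dashed line. The fibroblast and interstitial matrix list has the lowest median, -1.25, and 3 called members, while most lists have none.

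Within cultures lacking the inhibitor, 5 genes were called (0.0505%), all lower in later organoids. The log2 change was -5.35 ± 0.79 for CXCL14 and -4.08 ± 0.61 for IRX4 (adjusted p = 0.00651 for each), -3.04 ± 0.47 for DCN (adjusted p = 0.011) and -3.98 ± 0.70 for GLI2 (adjusted p = 0.046). IGFBP2, an insulin-like growth factor binding protein, stood at 0 and 0.421 CPM in later and 12.1 and 11.5 CPM in early cultures without the inhibitor (adjusted p = 0.046), and at 0 in later and 0 to 1.16 CPM in early cultures with it. The count was 0 without later replicate 2 and 1 without later replicate 1 or early replicate 1 of these cultures, and 23 without early replicate 2. It was 10 without early replicate 1 and 3 without early replicate 2 of the cultures with the inhibitor, whose libraries enter the shared estimate of the spread.

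Within cultures with the inhibitor, 6 genes were called (0.0606%), of which 4 were higher (0.0404%) and 2 lower (0.0202%) in later organoids. SLC14A1 was higher by 2.87 ± 0.39 on the log2 scale (adjusted p = 0.0028), C9H17orf64 by 2.84 ± 0.43 (adjusted p = 0.00434) and UPK1B by 4.07 ± 0.66 (adjusted p = 0.0104), and KRT4 was also called higher (adjusted p = 0.00434). CKB fell by 2.94 on the log2 scale (SE 0.44, adjusted p = 0.00434), and LOC100686502 fell by 2.88. None of the 5 genes called in the other medium was among them. In these cultures DCN and CXCL14 had changes of -0.54 and -0.68 that did not pass the test (adjusted p = 0.974 for each). COL3A1 (-1.59, adjusted p = 0.855) and NRG1 (1.09, adjusted p = 0.559) did not pass it either. IRX4 held 2 and 0 counts in later and 14, 37 and 135 in early cultures with the inhibitor (adjusted p = 0.0608), and GLI2 0 and 0 in later and 6, 6 and 19 in early ones (adjusted p = 0.367). Both were lower in each later than in each early library of that medium without being called. The count was 0 without later replicate 2 with the inhibitor, 3 without later replicate 1 or early replicate 3 and 14 without early replicate 1.

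A gene called in cultures with the inhibitor and not in those without it is not shown to differ, so the difference itself was tested. No gene passed: edgeR called 0 of 9893, of which 268 had an unadjusted p under 0.05, while DESeq2 called 1 and voom 0. CXCL14 had the smallest p, with a passage change higher by 4.67 ± 0.93 on the log2 scale in cultures with the inhibitor (adjusted p = 0.486). DCN had a difference of 2.51 ± 0.64 and COL3A1 of 2.11 ± 0.94, both with the smaller change in cultures with the inhibitor (adjusted p = 1 for each). CKB had a difference of -2.55 (adjusted p = 0.727), with the larger change in those cultures. IRX4 had a difference of -0.42 ± 1.04 and NRG1 of -0.57 ± 0.53 (adjusted p = 1 for each). For IRX4 the value depends on the model's prior count, since later cultures with the inhibitor held 2 and 0 counts. It does not show that IRX4 changed alike in both media.

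**Figure D5:**
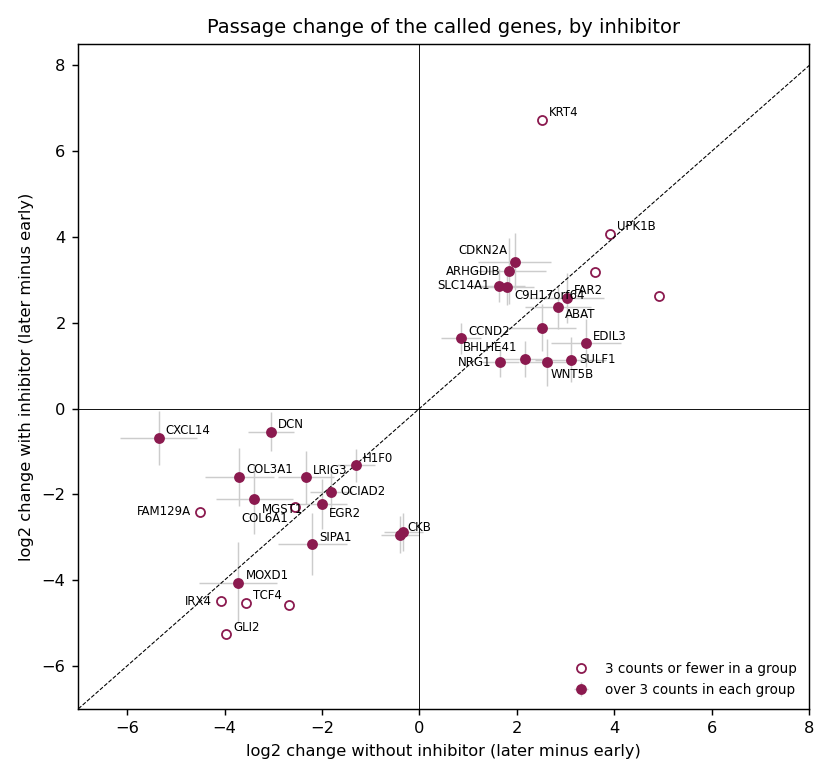
Passage log2 change (later minus early) of the 35 called genes in cultures without the inhibitor (horizontal) and with it (vertical). Lines are SE, the dashed line marks equal changes, and the 10 genes with 3 counts or fewer in a group are open points without error bars, since their fitted change depends on the model's prior count. CXCL14 and DCN lie left of the dashed line at -5.35 and -3.04 without the inhibitor, and CKB lies near zero without it and at -2.94 with it.

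By their levels across the 9 libraries, the genes most like IRX4 were LRIG3 (Pearson r = 0.969 of log2 CPM), NFIB (0.924) and MOXD1 (0.922). Those most like COL3A1 were NFIB (0.916), COL1A1 (0.912) and MRPL13 (0.9). For NRG1 they were DNASE1L1 (0.961), ATP6V1H (0.946) and HN1L (0.938), and for CCND2 they were MRPL57 (0.918), MTUS2 (0.918) and SLC52A2 (0.909). These are descriptions over 9 points that share their libraries, passage classes and depth. NFIB, a transcription factor of follicle stem cells that is near the top for both IRX4 and COL3A1, averaged 71.6 CPM in later and 139 CPM in early organoids and was not called (-0.89, adjusted p = 0.204).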

How the data were processed

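The deposited values are expected counts per gene of bulk CEL-seq2 libraries, in which some entries hold fractions. The submitters' processing notes name BWA 0.6.2-r126 and the build CanFam3.1, but the sources used here do not give the annotation, the counter or any collapsing of molecular barcodes. Counts were rounded, and 4 entries that name no gene (0.461 to 2.158% of a library's counts) were left out. The 6 differentiation libraries list fewer entries, and those absent there were set to 0 (156 of the genes tested, none of them called). A RefSeq symbol table, assembly UU_Cfam_GSD_1.0, gave current symbols to 401 of 6691 provisional locus names.

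Genes were fitted with edgeR 4.0.16 (R 4.3.3) by the quasi-likelihood test over all 23 libraries in 12 groups, with TMM scaling and the default count filter, which left 9893 genes, 11 residual degrees of freedom and a common dispersion of 0.0984. Genes were called at a Benjamini-Hochberg adjusted p under 0.05. Passage was compared over both media, each medium weighing equally, within each medium, and as the difference between media. Class means are plain means of the group means. The SE is the log2 change divided by the square root of F. The labels give no batch or date, so none was tested. No 2 replicates agreed within sampling noise.

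The genes and the 32 lists were chosen with earlier results of these data known. Named genes are the 12 largest rises and falls without overlap and with at least 20 CPM, up to 3 called members per list and direction (or the member with the smallest p), a fixed set (1 gene of it is not reported here), and the 3 genes most like each of IRX4, CCND2, NRG1 and COL3A1. The fit was tested on simulated data. Alternatives were other scalings, count filters, tools (DESeq2 1.42.0, limma 3.58.1 voom), sample sets, a replicate block and leaving out each library.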

Additional observations from a re-analysis of the deposited data

Results flagged for a closer look

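A library stood far from the rest of its passage class, by Dixon's test at 95%, in 4 of the 70 classes tested (35 called genes in 2 classes), a rule by which chance marks about 1 in 20. KRT4 stood at 162 CPM in replicate 2 of later organoids with the inhibitor, against 2.28 to 11.4 CPM in the other 3 later libraries. COL3A1 stood at 243 CPM in replicate 1 of early organoids without the inhibitor and at 14.9 to 64 CPM in the other 4 early libraries. CCND2 stood at 578 CPM in replicate 2 of early organoids without the inhibitor and at 383 to 412 CPM in the other 4. EDIL3 stood at 31.8 CPM in replicate 1 of early organoids with the inhibitor, the library with 5.35% mitochondrial counts, and at 3.08 to 10.8 CPM in the other 4.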

How the results depend on the processing

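No called gene changed direction in any alternative, and 33 of the 35 lost the call in at least 1. The counts moved as follows. Without a count filter, 172 genes were called over both media, 115 without the inhibitor, 135 with it and 41 for the difference between media. With the 17 tissue and expansion libraries the counts were 74, 28, 18 and 1. With the 9 libraries alone 21 genes were called over both media, 18 of them among the 35, and 1 with the inhibitor, and an additive fit to them called 23. The stricter filter called 3 without the inhibitor, and DESeq2 16 without it, 13 with it and 1 for the difference. Leaving out 1 library gave 9 to 53 genes over both media, 0 to 23 without the inhibitor, 0 to 14 with it and 0 to 0 for the difference. The cause of these shifts was not tested. Whether the replicate numbers pair the libraries is not known. The deviations of 12 same-numbered pairs from their group means correlated at -0.323 to 0.149, with 5 pairs above 0.1. In a group of 2 libraries these deviations mirror each other, so the 12 values are not independent and cannot settle the pairing. With the replicate block 18 genes were called over both media, 0 with the inhibitor, 5 without it and 0 for the difference. Groups of 2 or 3 libraries and totals from 734647 counts limit what could be called at low levels.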

Other observations

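Interfollicular organoids, grown from the epidermis between follicles, had 1 later and 1 early library, both with the inhibitor, so their values have no replicate check. The later library held 222051 counts and the early one 474823, so that a count of 0 allows up to 18.2 CPM in the later and 5.81 CPM in the early library. CXCL14 stood at 783 CPM in the later and 172 CPM in the early one. COL3A1 stood at 139.5 CPM in the later and 23.2 CPM in the early library and DCN at 243 CPM in the later and 34.8 CPM in the early one, so these 3 genes lay on the opposite side from follicle organoids. CDKN2A, at 115 CPM in the later and 29.0 CPM in the early library, and NRG1, at 303 CPM in the later and 226 CPM in the early one, lay on the same side. IRX4, at 24.3 CPM in the later and 3.87 CPM in the early library, lay on the opposite side, with its early value under the limit of 5.81 CPM. Among the called genes, 21 reached 20 CPM in either interfollicular library. The later library was higher for 3 of the 10 that rose in follicle organoids and lower for 3 of the 11 that fell. Over all 5519 tested genes at that level, 49.7% were higher and 50.3% lower in the later library. None of these differences was tested. CCND2 stood at 352 CPM in the later and 429.7 CPM in the early library, UPK1B at 12.1 CPM in the later and 56.1 CPM in the early one, and KRT4 at 0 in the later and 29.0 CPM in the early one, where both later values are under that limit.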
